A study of Mus musculus with 21 samples.

Results

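The genes described here encode 10 ligands with which an antigen-presenting cell stimulates or restrains the cell it touches, namely Cd80, Cd86, Icosl, Cd274, Pdcd1lg2, Cd276, Cd70, Tnfsf4, Tnfsf9 and Cd200. They were matched by gene symbol to the 37734 genes that each library listed, and all 10 were found. The measurement was the normalized read count, the number of sequenced reads assigned to a gene divided by 1 size factor per library, in sorted thymic and splenic conventional dendritic cells (cDC) of C57BL/6 mice aged 6 to 8 weeks.

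A T cell that recognizes a peptide on a dendritic cell also reads the ligands around it. CD80 and CD86 bind the activating receptor CD28 and the inhibitory receptor CTLA4, ICOSL binds ICOS, and the TNF superfamily ligands CD70, OX40L (Tnfsf4) and the ligand encoded by Tnfsf9 engage CD27, OX40 and the receptor encoded by Tnfrsf9, all as costimuli. PD-L1 (Cd274) and PD-L2 (Pdcd1lg2) bind the inhibitory receptor PD-1, CD200 binds an inhibitory receptor carried mainly by myeloid cells, and CD276 is a B7 family protein whose receptor is not settled. In the thymus, dendritic cells of the medulla present self peptides to developing T cells, and costimulation through CD28 and CD27 is known to take part in the formation of regulatory T cells there.

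There were 21 libraries in 6 groups of untreated wild-type cells. Immature cDC1 and immature cDC2 came from the spleen (SP1Minus and SP2Minus) and from the thymus (TH1Minus and TH2Minus), and mature cDC1 and cDC2 came from the thymus alone (TH1Plus and TH2Plus). CD11c+ cells were enriched with magnetic beads and sorted, cDC1 as CD24+ CD11b- and cDC2 as CD24- CD11b+ cells, with maturity read from the surface proteins CCR7 and ESAM (both present on mature cells and both absent from immature cells). Each library held the pooled cells of several mice. The number at the start of each library's description was taken as its pool number, which is an assumption. A pair of SP1Minus libraries that carried the same pool number, index and lane differed less than any other pair of that group (chi-square per degree of freedom 2.444) and was averaged. TH1Minus replicates 3 and 4 also carried one pool number, index and lane, but differed more than any other pair of that group (92.771) and were kept as 2 samples. This left 20 samples, 4 for SP1Minus, 4 for TH1Minus and 3 for each other group. The libraries held 14266867 to 40119669 reads assigned to genes. Some samples of 1 group shared a pool number, so the p-values measure the spread between these samples, which may in part be technical.

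The sorted populations were checked against the transcripts of their sort and subset markers. Ccr7, the chemokine receptor of the gate, stood at 110227 ± 18494 (SD, n = 3) in mature and 714 ± 179 (SD, n = 4) in immature thymic cDC1, and at 99928 ± 13553 (SD, n = 3) against 3419 ± 682 (SD, n = 3) in thymic cDC2. Xcr1, a chemokine receptor of cDC1, was at 19098 ± 2044 in immature thymic cDC1 and 235 ± 139 in immature thymic cDC2, and in mature cells at 440 ± 164 and 18.9 ± 7.21. The summed level of 6 cDC1 markers was 7515 to 11240 in immature and 14329 to 22411 in mature thymic cDC2, against 14049 to 18009 for the 6 cDC2 markers in mature cDC2 and 40512 to 44163 for the cDC1 markers in mature cDC1. Of the 6 cDC1 markers, Irf8 (2.49 on the log2 scale, SE 0.25) and Batf3 (2.78, SE 0.29) were higher in mature than in immature cDC2 and 3 were lower. Itgam, which encodes CD11b, was at 417 ± 101 in immature thymic cDC2, at 20.4 ± 15.4 in mature thymic cDC2 and at 0 in the 3 mature thymic cDC1 samples. Sirpa, another cDC2 marker, was at 7413 ± 1730 in mature cDC2 against 392 ± 98.4 in mature cDC1.

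The leading ligand transcript differed between the groups. To compare genes with each other, each normalized read count was divided by the kilobases of exon of the gene in GENCODE M21, and in the rest of the report values are not divided by length unless stated. Per kilobase, Cd86 was the highest of the 10 ligands in all 8 immature cDC1 samples, where it made up 49.8 to 58.1% of their summed level in the spleen and 61.2 to 64.0% in the thymus. Icosl led in all 6 immature cDC2 samples, with 29.8 to 33.1% in the spleen and 25.6 to 26.8% in the thymus. Cd274 led in all 3 mature cDC1 samples with 34.9 to 45.4%, and in mature cDC2 it led in 2 samples while Icosl led in the other.

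**Figure D1:**
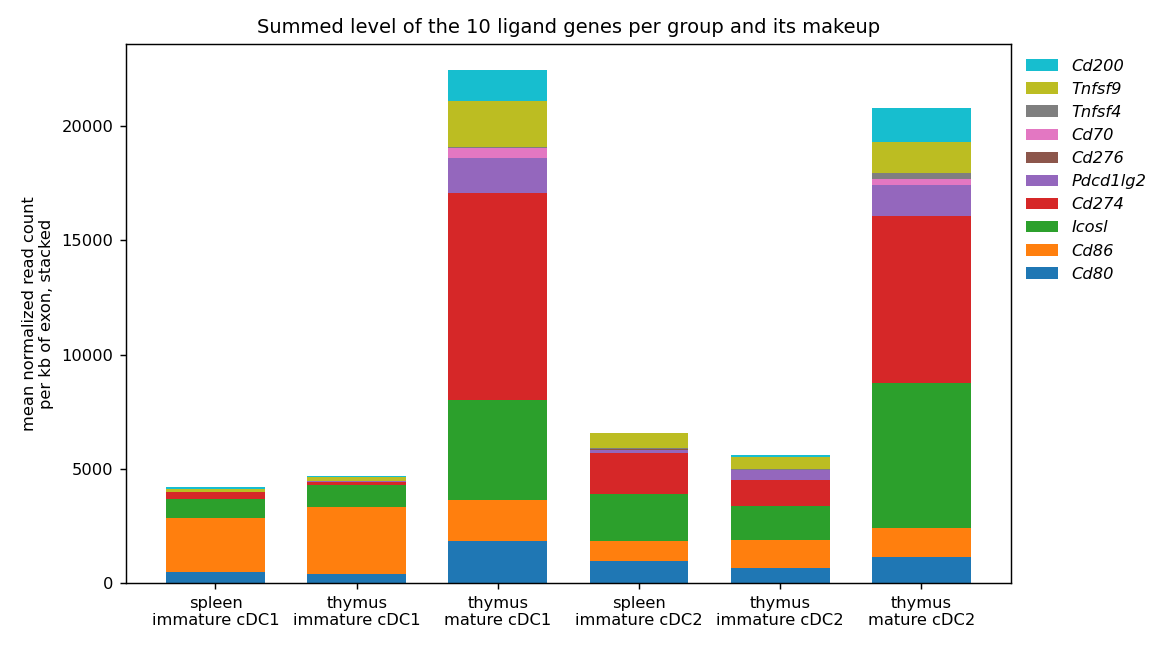
Group means of the 10 ligand genes in normalized read count per kilobase of exon (y axis, starting at 0), stacked for each of the 6 groups (x axis). Cd86 makes up 55.7 and 62.5% of the stack in immature splenic and thymic cDC1, and Cd274 makes up 40.4 and 35.1% in mature thymic cDC1 and cDC2.

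The height of the stacks in the plot of summed levels differed between groups as well. The sum over the 10 genes lay between 3704 and 4771 per kilobase in the 8 immature cDC1 samples, between 5225 and 7023 in the 6 immature cDC2 samples, and between 18994 and 25150 in the 6 mature samples, so the 3 kinds of sample did not overlap.

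**Figure D2:**
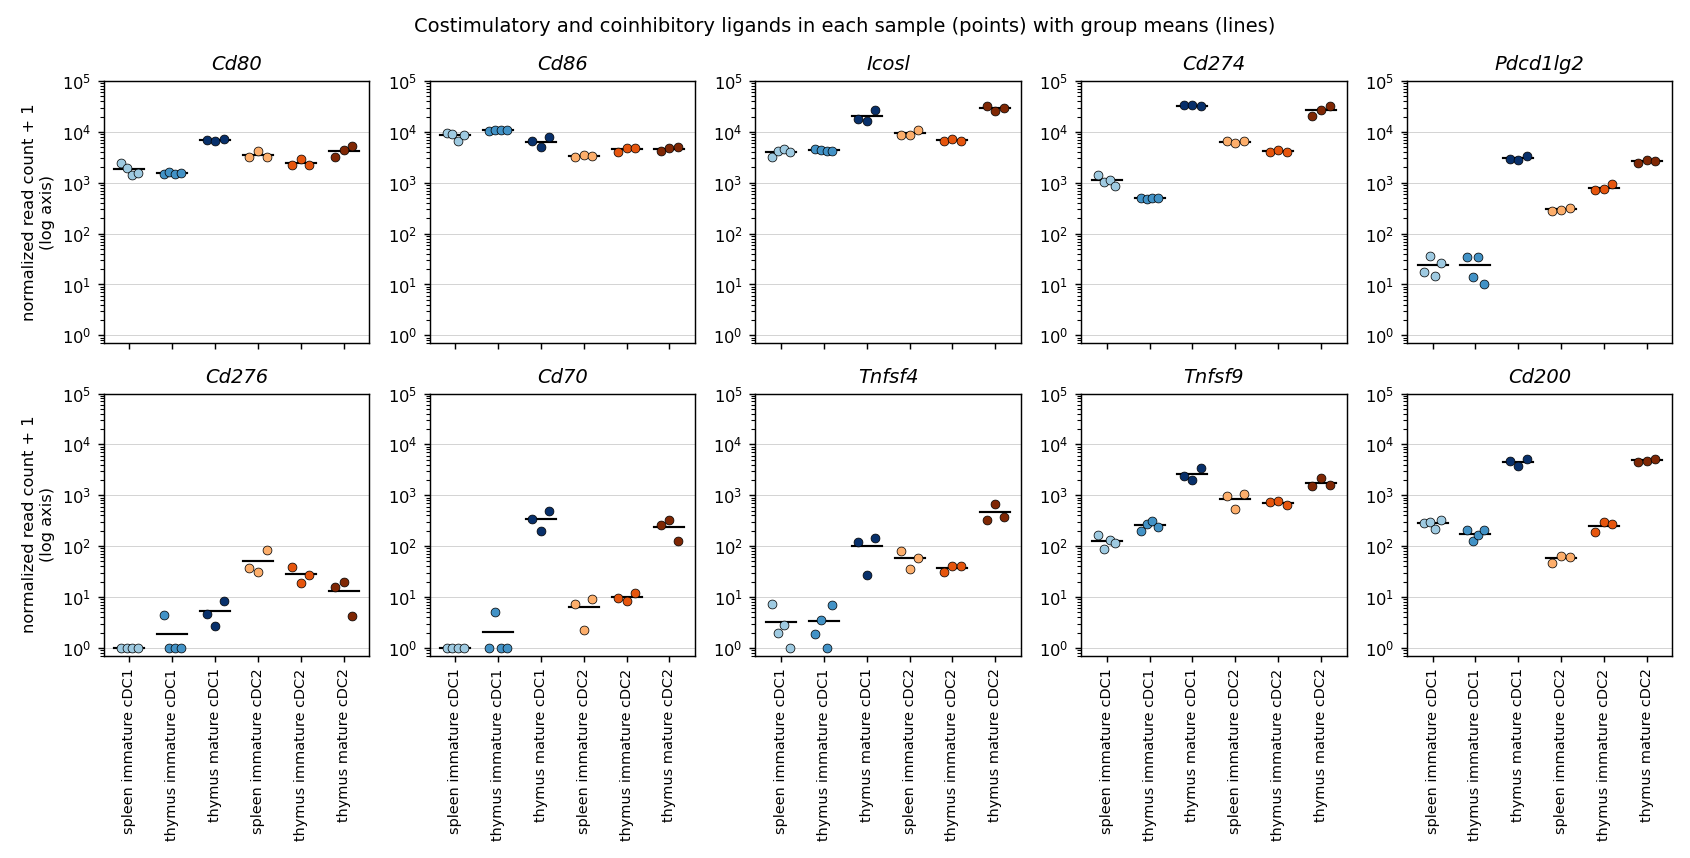
Normalized read count plus 1 (log axis) of each ligand gene in the 20 samples, grouped on the x axis, with 1 point per sample and a line at the group mean. Mature thymic samples stand highest for Cd274, Pdcd1lg2, Icosl, Cd70, Tnfsf9 and Cd200, whereas Cd86 is highest in immature cDC1 and Cd276 in immature cDC2.

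Cd80 and Cd86, which share their receptors, differed in where they were highest, as the plot of values by sample shows. Cd80 (chr16:38455561-38496335, plus strand, mm10) read 6791, 6722 and 7158 in mature thymic cDC1 and 1510, 1613, 1512 and 1559 in immature thymic cDC1. In thymic cDC2 the Cd80 values were 3204, 4308 and 5206 in mature and 2238, 2903 and 2266 in immature cells, and in the spleen they were 2491, 1973, 1439 and 1546 in cDC1 and 3236, 4213 and 3222 in cDC2. Mature cDC1 lay above every other group without overlap, while mature cDC2 overlapped with splenic cDC2.

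Cd86 (chr16:36603869-36666081, minus strand, mm10) ran the other way. It read 10338, 10895, 10723 and 11108 in immature thymic cDC1 and 6535, 5064 and 7763 in mature thymic cDC1. In splenic cDC1 it read 9558, 9170, 6759 and 8711. All 3 cDC2 groups were lower, with 3155, 3513 and 3336 in the spleen, 3946, 4798 and 4858 in immature thymic cells and 4144, 4778 and 5077 in mature thymic cells. Every immature cDC1 sample was above every cDC2 sample, and the mature and immature cDC2 of the thymus overlapped.

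The balance of both transcripts moved accordingly. The ratio of Cd80 to Cd86, both per kilobase, was 0.139 to 0.146 in immature and 0.912 to 1.31 in mature thymic cDC1. In thymic cDC2 it was 0.461 to 0.598 in immature and 0.764 to 1.01 in mature cells, and in the spleen it was 0.175 to 0.258 in cDC1 and 0.955 to 1.19 in cDC2. Splenic cDC2 and mature thymic cDC1 thus had about as much Cd80 as Cd86 transcript per kilobase, and immature cDC1 had several times more Cd86.

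Icosl (chr10:78069302-78083913, plus strand, mm10) was abundant in every group. Its values were 32634, 25831 and 29342 in mature thymic cDC2 and 17728, 16211 and 26674 in mature thymic cDC1. They were 6481, 7315 and 6600 in immature thymic cDC2 and 4713, 4473, 4226 and 4148 in immature thymic cDC1. The mature samples of the subsets overlapped, and all of them were above all immature samples. Splenic cDC2 read 8876, 8706 and 10737 and splenic cDC1 3141, 4175, 4508 and 3975.

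The ligands of PD-1 ranged widely between the groups. Cd274 (chr19:29367455-29388095, plus strand, mm10), whose exons overlap the gene AC119228.1 on the other strand, read 33524, 33200 and 31827 in mature thymic cDC1 and 491, 473, 495 and 499 in immature thymic cDC1. In thymic cDC2 it read 20325, 26804 and 32136 in mature and 4010, 4493 and 4104 in immature cells. In the spleen the values were 1422, 1011, 1146 and 878 in cDC1 and 6560, 6062 and 6730 in cDC2. The mature groups overlapped with each other, and the other 4 groups followed in the order splenic cDC2, immature thymic cDC2, splenic cDC1 and immature thymic cDC1, with no overlap between neighbours.

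Pdcd1lg2 (chr19:29410919-29471161, plus strand, mm10) begins 22.8 kilobases after the end of Cd274. It read 2924, 2792 and 3292 in mature and 33.8, 13.3, 34.3 and 9.09 in immature thymic cDC1, and 2474, 2788 and 2687 in mature and 712, 757 and 927 in immature thymic cDC2. The spleen gave 16.5, 35.5, 13.9 and 25.8 in cDC1 and 282, 294 and 319 in cDC2. Immature cDC1 was lowest in both tissues, on 9 to 69 reads per sample, and both mature groups were near each other. Over the 20 samples the log2 values of Cd274 and Pdcd1lg2 had a Pearson correlation of 0.947, a description of samples that share their groups.

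These neighbouring genes both rose with maturity, but between the tissues they moved apart in immature cDC2. There Cd274 was lower in the thymus (log2 fold change -0.62, SE 0.16) and Pdcd1lg2 higher (1.41, SE 0.39). The 250 bases before the RefSeq start site of each are shown, with those of Cd80, which shares receptors with Cd86 but rose with Cd274. The sequences are RefSeq promoter windows on GRCm38.p6, written 5′ to 3′ on the strand of the gene (plus for all 3). The Cd274 window is chr19:29367188-29367437, that of Pdcd1lg2 chr19:29410669-29410918 and that of Cd80 chr16:38458683-38458932, the last lying inside the longer GENCODE model of Cd80 and outside its exons. Capitals mark a match to a searched motif.
Cd274: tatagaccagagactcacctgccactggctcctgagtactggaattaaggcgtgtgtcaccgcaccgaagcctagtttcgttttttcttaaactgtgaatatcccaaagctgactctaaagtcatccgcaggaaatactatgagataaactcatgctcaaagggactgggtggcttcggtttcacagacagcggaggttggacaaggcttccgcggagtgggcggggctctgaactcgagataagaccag
Pdcd1lg2: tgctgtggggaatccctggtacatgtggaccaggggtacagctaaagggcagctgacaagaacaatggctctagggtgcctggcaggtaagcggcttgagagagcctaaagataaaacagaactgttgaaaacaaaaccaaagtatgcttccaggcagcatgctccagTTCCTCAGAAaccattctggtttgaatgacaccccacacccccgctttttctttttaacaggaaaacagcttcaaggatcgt
Cd80: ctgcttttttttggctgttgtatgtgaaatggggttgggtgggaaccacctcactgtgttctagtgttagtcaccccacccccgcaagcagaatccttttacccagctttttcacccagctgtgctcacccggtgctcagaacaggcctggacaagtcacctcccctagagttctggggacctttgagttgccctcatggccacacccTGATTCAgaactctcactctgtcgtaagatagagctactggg

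The table of promoters held windows for 6 of the members, these 3 and Icosl, Cd200 and Cd276. On both strands, 5 motifs were searched. A STAT-type motif, TTC and GAA with any 4 bases between them, matched in the Pdcd1lg2 window, beginning 82 bases before the start, and in 5.85% of all 32851 windows. The AP-1-type motif TGANTCA matched in the Cd80 window, beginning 42 bases before the start, and in 6.75% of all windows. A kappaB-type motif (GGGA and TTCC with 2 bases between them, in 1.21% of all windows), an interferon response type (GAAA and GAAA with 2 bases between them, 2.98%) and the shorter STAT-type (TTC and GAA with 3 bases between them, 7.02%) were not in any of the 6 windows. Only these forms of the motifs were searched, so a site of another form in these windows would have been missed. Of the matches, none overlapped another. The GC content was 50.4% for Cd274, 48.4% for Pdcd1lg2, 52.8% for Cd80 and 42.4% for Cd200, against 68.8% for Icosl and 77.6% for Cd276 and a median of 52.4% over all windows.

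Cd276 (chr9:58524298-58555437, minus strand, mm10) had the lowest maximum per kilobase of the 10 members and was the only one of them to be highest in splenic cDC2. Its exons overlap Gm10657 on the other strand, and the strand setting of the counting was not given in the sources used here. It read 36.6, 29.4 and 81.5 in splenic cDC2, 38.4, 18.1 and 26.5 in immature thymic cDC2 and 14.6, 18.8 and 3.14 in mature thymic cDC2. No read was found in the 4 splenic cDC1 samples, and of the 4 immature thymic cDC1 samples 1 had 4 reads and the others none. Mature thymic cDC1 had 2, 1 and 9 reads.

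Of the TNF superfamily ligands, Cd70 and Tnfsf4 were scarce in immature cDC1. Cd70 (chr17:57145997-57149777, minus strand, mm10) read 347, 199 and 494 in mature thymic cDC1 and 258, 326 and 123 in mature thymic cDC2. In immature thymic cDC1, Cd70 was at 0 in 3 samples and at 4.16 (5 reads) in the other, and in immature thymic cDC2 it read 8.54, 7.37 and 10.9. The spleen had no Cd70 read in cDC1 and 6.41, 1.25 and 8.15 in cDC2. Mature and immature samples did not overlap in either subset.

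Tnfsf4 (chr1:161395409-161418410, plus strand, mm10), which encodes OX40L, was the member most biased to cDC2 among mature cells. It read 326, 679 and 381 in mature cDC2 and 122, 26.0 and 144 in mature cDC1. Immature thymic cells read 29.9, 40.2 and 40.5 in cDC2 and 0.845, 2.5, 0 and 6.06 in cDC1, and splenic cells 77.8, 33.7 and 58.7 in cDC2 and 6.18, 0.986, 1.85 and 0 in cDC1. Mature cDC1 replicate 2, with 15 reads, stood apart from its group and lay below every splenic cDC2 sample.

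Tnfsf9 (chr17:57105325-57107757, plus strand, mm10), a neighbour of Cd70 at a distance of 38.2 kilobases, was the highest of the 3 TNF ligands per kilobase in every group. It ranged from 1984 to 3371 in mature cDC1 and from 1542 to 2154 in mature cDC2, and these ranges overlapped. Immature thymic cells ranged from 193 to 315 in cDC1 and from 634 to 764 in cDC2. Splenic cDC1 (87.8 to 164) lay below all others and splenic cDC2 (525 to 1051) overlapped with immature thymic cDC2. Its exons overlap Gm11110 on the other strand.

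Cd200 (chr16:45382135-45409053, minus strand, mm10) had nearly the same level in both mature groups, 4800, 3683 and 5238 in cDC1 and 4573, 4727 and 5235 in cDC2. The immature thymic samples read 204, 127, 162 and 208 in cDC1 and 188, 294 and 273 in cDC2, and splenic cDC1 read 289, 302, 220 and 323. Splenic cDC2, with 45.8, 63.7 and 60.3, was the lowest group and did not overlap with any other.

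The maturation of thymic cDC was compared first. A gene counted as changed where the adjusted p of limma, fitted over the 14970 genes that reached a normalized read count of 10 in 3 or more samples, was below 0.1 and the difference exceeded 2-fold, and fold changes are differences of log2(normalized read count + 1). All 10 members entered the test, Cd70 through mature samples and Cd276 through cDC2 samples alone, so that these 2 could enter only where they were high. In cDC1, 9 of 10 members rose and none fell with maturity, where 45.7% of all tested genes changed (21.3% rose and 24.5% fell). In cDC2, 7 of 10 rose and none fell, where 35.6% of all genes changed (18.6% rose and 17.0% fell). The median log2 fold change of the members was 4.03 in cDC1 and 1.92 in cDC2, against -0.04 and 0.04 over all genes.

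In cDC1 the largest differences were those of Cd70, the PD-1 ligands and Tnfsf4. Cd274 rose by 6.07 (log2; SE 0.15, adjusted p = 5.13e-17), or 67.1-fold in mean normalized read count. Pdcd1lg2 rose by 7.19 (SE 0.37, adjusted p = 1.34e-12) and Cd200 by 4.71 (SE 0.21, adjusted p = 2.42e-13). Cd70 rose by 7.75 (SE 0.62, adjusted p = 1.29e-09), a value that ranged from 5.23 to 10.31 over the other settings, the immature group holding only 5 reads. For Cd80 and Icosl the rise was near 4-fold, 2.15 (SE 0.18) and 2.17 (SE 0.16) on the log2 scale. Tnfsf4 rose by 4.91 (SE 0.71), with a range of 3.11 to 6.12 over the settings on 0 to 6 reads per immature sample, and Tnfsf9 by 3.34 (SE 0.26). Cd276 passed the thresholds (log2 fold change 1.71, SE 0.66, adjusted p = 0.0312) on 12 reads in mature and 4 reads in immature cells, with overlapping ranges. It failed them without TH1Plus replicate 3 (adjusted p = 0.129), with edgeR (adjusted p = 0.108) and with a pseudocount of 8 (log2 fold change 0.46, adjusted p = 0.247).

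The Cd86 transcript did not rise in either subset. In cDC1 its log2 fold change was -0.76 (SE 0.15, adjusted p = 0.000176), a difference under 2-fold in which all 3 mature samples lay below all 4 immature ones. In cDC2 the difference of Cd86 was 0.04 (SE 0.16, adjusted p = 0.856). The paper reports the proteins CD80 and CD86 at their highest on the CCR7+ ESAM+ thymic cells of both subsets. The values here are transcript levels only and were not compared with protein.

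**Figure D3:**
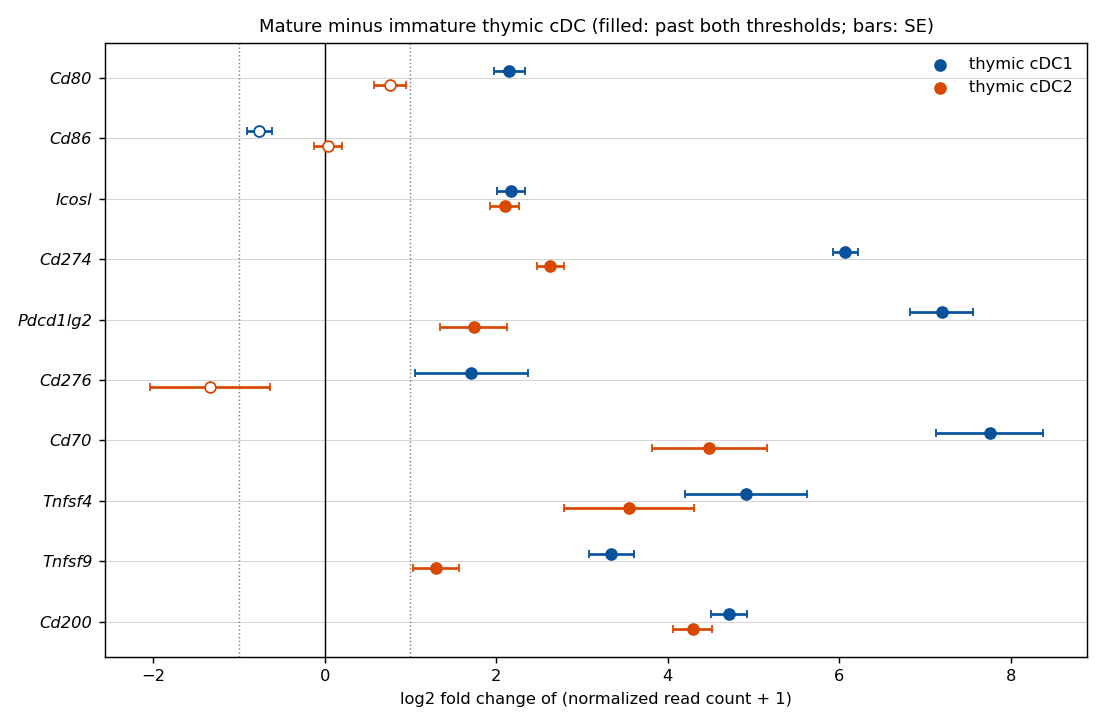
Log2 fold change of normalized read count plus 1 between mature and immature thymic cDC1 (blue) and cDC2 (orange) for each ligand gene, with standard errors, filled where the gene passed both thresholds (dotted lines at 2-fold). Cd274 stands at 6.07 in cDC1 and 2.63 in cDC2, Pdcd1lg2 at 7.19 and 1.74, and Cd200 at 4.71 and 4.29, while Cd86 lies near 0 in cDC2.

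In cDC2 the order of the changes was different. Cd70 rose by 4.48 (SE 0.67, adjusted p = 1.27e-05), Cd200 by 4.29 (SE 0.23, adjusted p = 9.47e-12) and Tnfsf4 by 3.55 (SE 0.76, adjusted p = 0.000639). Cd274 rose by 2.63 (SE 0.16), Icosl by 2.10 (SE 0.17), Pdcd1lg2 by 1.74 (SE 0.39) and Tnfsf9 by 1.3 (SE 0.27), each with an adjusted p of at most 0.000983. Cd80 stayed under 2-fold, at 0.76 (SE 0.19, adjusted p = 0.00273), with all mature above all immature samples. For Cd276 the difference was -1.34 (SE 0.70, adjusted p = 0.127).

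Whether maturity changed a ligand differently in the subsets was tested as the difference between both log2 fold changes, cDC2 minus cDC1. Of the 10 members, 6 passed and all 6 were negative, where 5.25% of all genes passed in that direction and 8.34% in the other. The difference was -5.45 (SE 0.53, adjusted p = 1.12e-06) for Pdcd1lg2, -3.44 (SE 0.22, adjusted p = 1.16e-08) for Cd274, -2.04 (SE 0.37, adjusted p = 0.001) for Tnfsf9 and -1.39 (SE 0.26, adjusted p = 0.00138) for Cd80. All 4 genes stood lower in every immature thymic cDC1 sample than in every immature thymic cDC2 sample. Cd70 (-3.28, SE 0.91, adjusted p = 0.0209) and Cd276 (-3.04, SE 0.96, adjusted p = 0.041) passed on few immature cDC1 reads. Both had entered the test only through samples where they were high, so their calls were not independent of the filter. Cd276 no longer passed without TH2Minus replicate 1 or TH2Plus replicate 3 (adjusted p = 0.105 and 0.1) or with edgeR (adjusted p = 0.148). Icosl (-0.07, SE 0.24) and Cd200 (-0.42, SE 0.31) showed no detectable difference, with intervals of 2 standard errors from -0.54 to 0.41 and from -1.05 to 0.20. For Cd86 the difference was 0.80 (SE 0.22, adjusted p = 0.0178), under 2-fold.

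Transcripts of other cell types moved with maturity too. Of 12 T cell and thymocyte markers, 10 were tested and all 10 rose in both subsets, and their summed level was 292 to 436 in immature and 11668 to 12729 in mature thymic cDC1, and 375 to 642 and 12826 to 13617 in thymic cDC2. Most of the sum in mature cells was Tcf7 (10090 ± 817 in cDC1 and 12174 ± 744 in cDC2), whereas Cd3e reached 52.2 ± 31.7 and 50.6 ± 25.7 and Ptcra 0.8 ± 1.38 and 0.72 ± 0.697. The summed level of 7 thymic epithelial markers was 69.7 to 176 in immature and 1783 to 2487 in mature cDC1, most of it Aire (1793 ± 252 in mature cDC1), with Foxn1 at 5.8 ± 5.45. In thymic cDC2 this sum was 189 to 217 in immature and 3680 to 4626 in mature cells, and 3 of the 7 markers rose in cDC1 and 6 in cDC2. The macrophage and monocyte list ranged from 11190 to 46804 over the 3 mature cDC2 samples. Their part in the results was not tested. In such sorted bulk samples, fewer cells with a transcript and less of it per cell cannot be told apart.

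All mature samples were sequenced in lane 8, a number that covers more than 1 run since 3 indices recur in it. Within lane 8, 3 mature against 3 immature cDC1 samples gave differences of 6.07 for Cd274, 7.44 for Pdcd1lg2, 2.14 for Cd80 and 4.79 for Cd200. In cDC2, 3 mature against 2 immature samples gave 2.6 for Cd274, 1.66 for Pdcd1lg2, 2.07 for Icosl and 4.09 for Cd200. The direction of all 9 and all 7 changed members was the same within this lane. Lane 8 held all mature and most immature thymic samples that gave these calls, so agreement was likely beforehand and is no separate check.

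The subsets were compared next, in each tissue and state. In the spleen 9 of 10 members differed, where 16.6% of all genes did. Of these, 7 were higher in cDC2 (9.93% of all genes) and 2 were lower (6.70% of all genes). The higher ones were Cd276, Tnfsf4 (4.44, SE 0.71, from 2.63 to 5.64 over the settings), Pdcd1lg2 (3.74, SE 0.37), Tnfsf9 (2.74, SE 0.26), Cd274 (2.55, SE 0.15), Cd70 and Icosl (1.26, SE 0.16). Cd276 was at least 19.7-fold higher in splenic cDC2, taking 3 reads per library as the floor for splenic cDC1. As it entered the test through cDC2 samples alone, its place in this count was not independent of the filter. Cd70 passed with 14 reads in cDC2 and none in cDC1. The lower ones were Cd200 (-2.30, SE 0.21, adjusted p = 5.35e-08) and Cd86 (-1.35, SE 0.15, adjusted p = 6.02e-07). Cd80 differed by 0.96 (SE 0.18, adjusted p = 0.000395), just under 2-fold.

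Among immature thymic cells the pattern was close to that of the spleen except for Cd200 and Icosl. There 7 of 10 members differed, where 16.4% of all genes did, 6 of them higher in cDC2 (11.0% of all genes) and 1, Cd86, lower (5.42% of all genes). Pdcd1lg2 differed by 5.27 (SE 0.37), Cd276 by 4.25 (SE 0.66), Tnfsf4 by 3.85 (SE 0.71), Cd274 by 3.10 (SE 0.15), Cd70 by 2.71 (SE 0.62), Tnfsf9 by 1.51 (SE 0.26) and Cd86 by -1.25 (SE 0.15), with adjusted p-values of at most 0.00269. On the few reads of immature cDC1, the value of Cd276 ranged from 1.99 to 6.77 over the settings and that of Tnfsf4 from 2.14 to 5.04, and both passed in each. As in the spleen, the call of Cd276 was not independent of the filter. With a pseudocount of 8, Cd70 no longer passed in the thymus (log2 fold change 0.93) or the spleen (0.69). Cd80, Icosl and Cd200 differed by 0.66, 0.63 and 0.52, each under 2-fold.

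Mature thymic cDC1 and cDC2 were far closer in these genes. Only Tnfsf4 passed, at 2.49 (SE 0.76, adjusted p = 0.0219) with cDC2 the higher, where 14.6% of all genes were higher in cDC2 and 4.36% lower. Without TH1Plus replicate 2, the sample with 15 Tnfsf4 reads, it gave 1.72 (adjusted p = 0.13), and with a pseudocount of 0.1 the adjusted p was 0.194. The other 9 members lay between -0.73 (Cd80, SE 0.19, adjusted p = 0.00923) and 1.2 (Cd276, SE 0.70, adjusted p = 0.237), while the median over all genes was 0.14. For Cd274 the difference was -0.34 (SE 0.16), with an interval of 2 standard errors from -0.66 to -0.01, and for Cd200 it was 0.10 (SE 0.23), with an interval from -0.36 to 0.55.

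**Figure D4:**
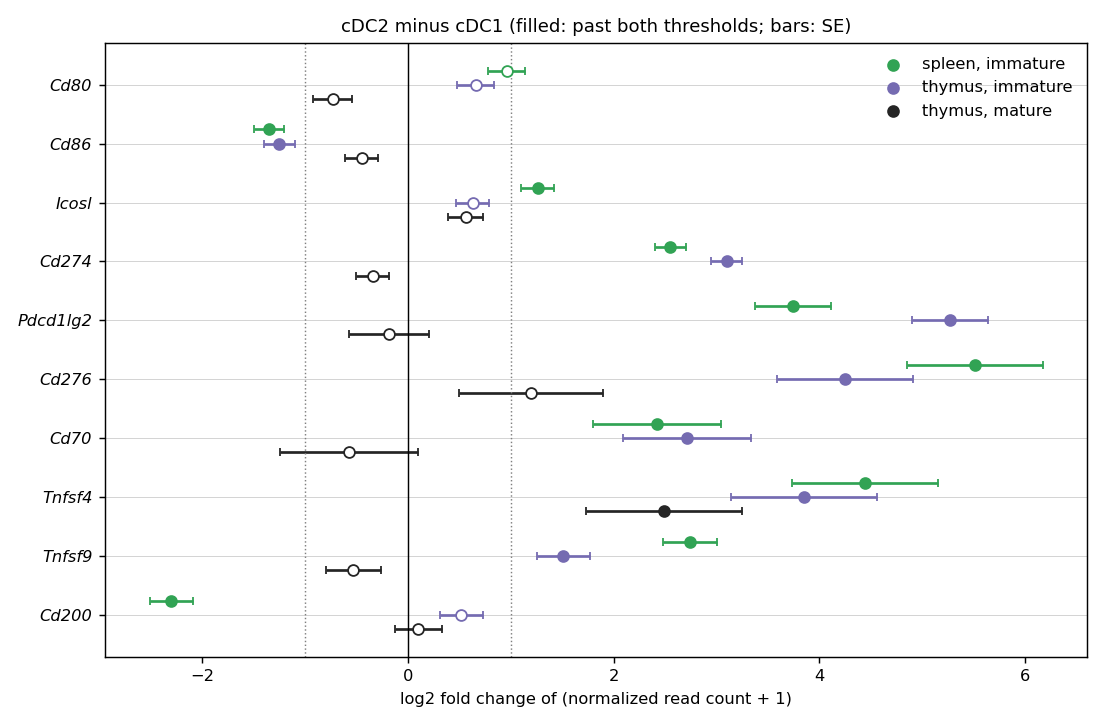
Log2 fold change of normalized read count plus 1 between cDC2 and cDC1 in the spleen (green), immature thymic cells (purple) and mature thymic cells (black), with standard errors, filled where the gene passed both thresholds (dotted lines at 2-fold). Pdcd1lg2 stands at 3.74, 5.27 and -0.18 and Cd274 at 2.55, 3.10 and -0.34, and among mature cells only Tnfsf4 is filled.

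Beside these differences, the macrophage and monocyte markers had a higher sum in the cDC2 groups. It was 18421 to 25249 in splenic cDC2 against 4577 to 5551 in splenic cDC1, and 26024 to 35630 against 3188 to 4282 in immature thymic cells. Most of it in cDC2 was Lyz2 (15394 ± 3140 in the spleen and 20836 ± 3348 in immature thymic cells). Vcam1 (-0.05 and -0.20) and Ly6c2 (-1.25 and -0.06) were not higher in cDC2 of either tissue, while the other markers of the list had positive fold changes. The part of these markers in the result was not tested. Within lanes the direction of every changed member was the same in the spleen and in immature thymic cells, each lane holding 1 to 3 samples per group. As the same samples gave the calls, this is no separate check.

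The tissue comparison of immature cells gave few changes. In cDC1, Cd274 was lower in the thymus (-1.16, SE 0.14, adjusted p = 5.44e-06) and Tnfsf9 was higher (1.03, SE 0.24, adjusted p = 0.00449), where 8.77% of all genes changed (4.52% were lower and 4.26% higher). All 4 thymic samples lay below all 4 splenic samples for Cd274 and above them for Tnfsf9. Tnfsf9 fell just under 2-fold with the lane as a covariate (0.98), with a pseudocount of 8 (0.99) and without SP1Minus replicate 2, TH1Minus replicate 2 or TH1Minus replicate 3 (0.88 to 1.0). Cd200 was at -0.70 (SE 0.20, adjusted p = 0.0202) without reaching 2-fold.

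In cDC2, Cd200 was higher in the thymus by 2.12 (SE 0.23, adjusted p = 9.78e-07), or 4.44-fold, and Pdcd1lg2 by 1.41 (SE 0.39, adjusted p = 0.0132), or 2.67-fold, where 8.30% of all genes were higher and 5.87% lower. Neither gene overlapped between the tissues. Cd274 was at -0.62 (SE 0.16, adjusted p = 0.00942), under 2-fold, with all thymic below all splenic samples.

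**Figure D5:**
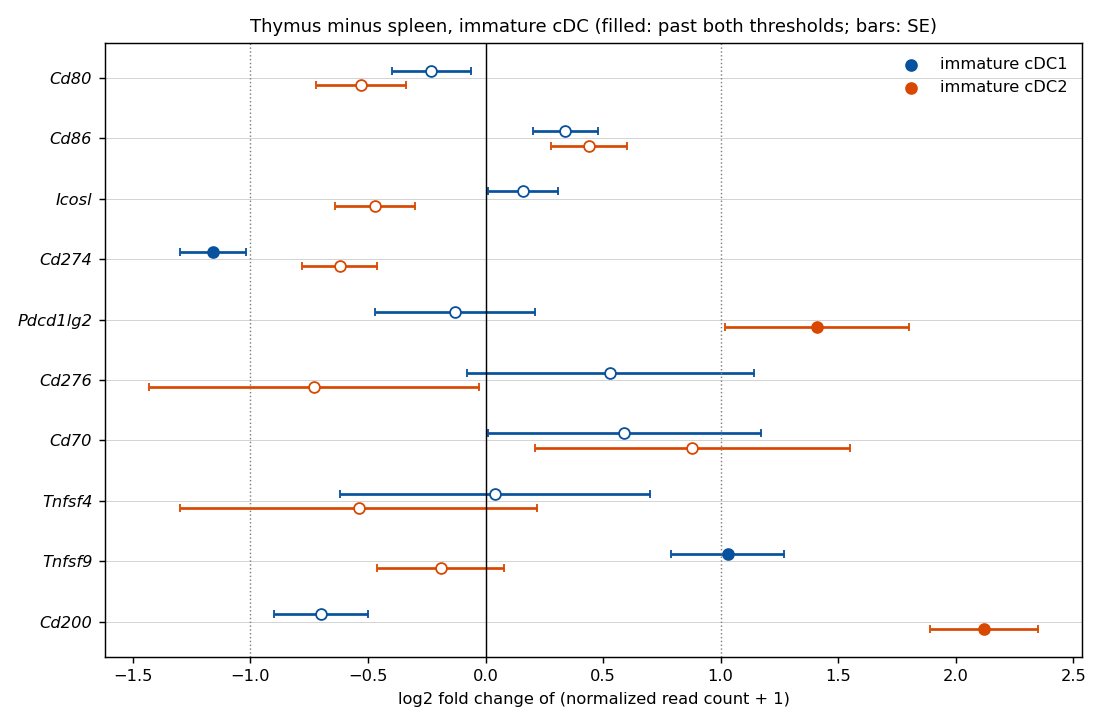
Log2 fold change of normalized read count plus 1 between immature thymic and immature splenic cDC1 (blue) and cDC2 (orange), with standard errors, filled where the gene passed both thresholds (dotted lines at 2-fold). Cd200 stands at -0.70 in cDC1 and 2.12 in cDC2, and Cd274 at -1.16 and -0.62.

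The tissue difference itself differed between the subsets for 2 members, Cd200 and Tnfsf9, where 4.98% of all genes passed. For Cd200 the difference in cDC2 minus that in cDC1 was 2.82 (SE 0.30, adjusted p = 5.47e-06), where 3.27% of all genes passed in that direction, and the plot of tissue differences shows it on opposite sides of 0. For Tnfsf9 it was -1.23 (SE 0.36, adjusted p = 0.0571), where 1.71% of all genes passed in that direction, and this was lost without any 1 of 8 samples (adjusted p of 0.1 to 0.182), namely SP2Minus replicates 1 and 3, SP1Minus replicates 2 and 4, TH2Minus replicates 1 and 3 and TH1Minus replicates 2 and 3. Pdcd1lg2 did not pass (1.54, SE 0.52, adjusted p = 0.111), but did in 9 of 31 other settings, among them edgeR (adjusted p = 0.0487), DESeq2 (adjusted p = 0.00301), 1 sample per pool (adjusted p = 0.0758) and the pool as a replicate block (adjusted p = 0.0793).

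Markers of other cells also differed between the tissues. The summed B cell markers were 610 to 1025 in splenic and 111 to 141 in thymic immature cDC1, and 826 to 894 and 199 to 263 in cDC2. The plasmacytoid dendritic cell list was at 691 to 797 in splenic and 2219 to 2634 in thymic immature cDC2. It was not uniform, as Cd300c was lower in the thymus (-2.37, SE 0.53) while the other tested markers were higher. The thymic epithelial markers were at 5.62 to 21.2 in splenic and 189 to 217 in thymic immature cDC2 (7 of 7 higher) and at 30.9 to 52.6 and 69.7 to 176 in cDC1 (3 of 7 higher). Of 10 tested T cell and thymocyte markers, 8 were higher in the thymus in cDC1, with sums of 179 to 279 in the spleen and 292 to 436 in the thymus, and 6 in cDC2, with 370 to 419 and 375 to 642. Of the macrophage and monocyte list, C1qa (2.67, SE 0.89), C1qb (2.52, SE 0.79), C1qc (2.46, SE 0.87) and Ly6c2 (3.07, SE 0.63) were higher in thymic cDC2. The rest of that list did not pass, among them Lyz2 (0.44, SE 0.48) and Adgre1, which was lower in the thymus (-1.27, SE 0.55). The part of all these markers in the result was not tested. Within lanes, Cd200 in cDC2 differed by 1.78 in lane 5 and 2.21 in lane 8, and Cd274 in cDC1 by -1.29 and -1.04.

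The receptors of the members, most of them known from T cells, were also read. With maturity, 6 of 10 rose and 3 fell in cDC1, where 21.3% of all genes rose and 24.5% fell, and 7 rose and 2 fell in cDC2, where 18.6% rose and 17.0% fell. The list medians were 2.41 and 2.29, against -0.04 and 0.04 over all genes. Tnfrsf4, the OX40 gene, stood at 5357 ± 1530 in mature and 19.6 ± 4.24 in immature cDC1 (8.01, SE 0.28), and at 4760 ± 1139 and 92.2 ± 12.6 in cDC2 (5.65, SE 0.30). Tnfrsf9 rose by 7.25 (SE 0.74) in cDC1 and 5.34 (SE 0.79) in cDC2, and Icos by 3.94 (SE 0.36) and 4.11 (SE 0.38). Rgmb, which encodes a partner of PD-L2, rose by 2.83 (SE 0.21) in cDC1 and 3.01 (SE 0.22) in cDC2. Cd200r1, which encodes the receptor of CD200, fell by 5.81 (SE 0.84) in cDC2, from 1208 ± 280 to 40.7 ± 34.5, while its ligand rose. Pdcd1, the PD-1 gene, named after its values were seen, was at 14.2 ± 2.74 in mature cDC1 and 28.6 ± 18.0 in mature cDC2. The T cell markers given above rose beside these receptors, and their part in the result was not tested.

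Among 6 regulators of B7 proteins at the surface, 3 rose and 1 fell with maturity in cDC1 and 1 rose and 1 fell in cDC2, where 45.7 and 35.6% of all genes changed, so the share in cDC2 was near that of all genes. The list medians were 0.65 and 0.47. Marchf1, an E3 ubiquitin ligase known to remove CD86 and MHC class II from the surface, fell by 7.71 (SE 0.50) in cDC1, from 4800 ± 927 to 29.9 ± 21.5, and by 4.54 (SE 0.54) in cDC2, from 3685 ± 473 to 173 ± 82.2. Cd83, whose product opposes it, rose by 1.43 (SE 0.16) in cDC1, and Cmtm6, which encodes a protein that stabilizes PD-L1, by 1.00 (SE 0.12), at the limit of 2-fold. Spop, part of a ligase of PD-L1, rose by 1.43 (SE 0.15) in cDC1 and 1.25 (SE 0.16) in cDC2.

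Other ligands did not all follow the members. Of 6 tested genes out of 10 in the list of other B7 and butyrophilin ligands, none rose with maturity, and 4 fell in cDC1 and 2 in cDC2, where 24.5 and 17.0% of all genes fell, with list medians of -1.53 and -0.49. Vsir, which encodes the inhibitory ligand VISTA, fell by 1.39 (SE 0.19) in cDC1 and 1.07 (SE 0.21) in cDC2. Btnl4 was found mainly in immature thymic cDC1, at 192 ± 40.0 against 4.9 ± 4.06 in splenic cDC1 and 0.519 ± 0.899 in immature thymic cDC2. Of 13 tested TNF superfamily ligands, 5 rose and 5 fell in cDC1 and 4 rose and 3 fell in cDC2, where 45.7 and 35.6% of all genes changed, with list medians of 0.11 and -0.42. Lta, the lymphotoxin alpha gene, rose by 6.43 (SE 0.70) in cDC1 and 3.86 (SE 0.75) in cDC2, and Tnf by 2.25 (SE 0.20) and 1.64 (SE 0.21). Tnfsf15 rose by 4.24 (SE 0.83) and Tnfsf13b, the BAFF gene, fell by 4.13 (SE 0.71) in cDC1, and Tnfsf14 and Tnfsf8 fell by 3.43 (SE 0.52) and 3.20 (SE 0.68) in cDC2.

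Of 15 ligands of other T cell coreceptors, 9 rose and 4 fell in cDC1, where 21.3% of all genes rose and 24.5% fell, and 6 rose and 4 fell in cDC2, where 18.6% rose and 17.0% fell. The list medians were 1.60 and 0.88. Slamf1 rose by 8.88 (SE 0.58) in cDC1 and 5.38 (SE 0.62) in cDC2, and Cd40, which receives the signal of T cell CD40L, by 3.12 (SE 0.18) and 2.29 (SE 0.19). Icam1, the adhesion ligand of LFA-1, rose by 2.12 (SE 0.18) in cDC2, and Nectin2, a ligand of the TIGIT and CD226 receptors, by 4.56 (SE 0.54) in cDC1. Cd84 fell by 4.33 (SE 0.30) in cDC1, and Lgals9, the galectin gene, by 2.40 (SE 0.30) in cDC2. Pvr, another ligand of both receptors, was the one gene of this list that passed the thresholds as lower in mature cDC2 than in mature cDC1 (-1.62, SE 0.16), at 3297 ± 355 against 10186 ± 1367.

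Members of the related lists also differed between the tissues and subsets. Of the 15 coreceptor ligands, 4 were higher and 1 lower in thymic than in splenic immature cDC1, where 4.26% of all genes were higher and 4.52% lower. Among the higher were Cd84 (4.53, SE 0.28) and Lgals9 (2.76, SE 0.26), with a list median of 0.21 against 0.00 over all genes. In cDC2 the same list gave 4 higher and 2 lower, where 8.30% of all genes were higher and 5.87% lower, with Cd84 at 3.75 (SE 0.32) and Nectin2 at 3.12 (SE 0.57), and a median of 0.10 against 0.02. Ctla4, which encodes the inhibitory receptor of CD80 and CD86, was at 150 ± 42.4 in splenic cDC1 and 0.848 ± 0.817 in splenic cDC2 (-6.42, SE 0.80), and at 26.1 ± 12.8 in immature thymic cDC1. Of the 13 TNF superfamily ligands tested, 5 were higher and 1 lower in cDC2 than in cDC1 of the spleen, where 9.93% of all genes were higher and 6.70% lower, with a median of 0.69 against 0.02. Among them were Tnfsf8 (3.43, SE 0.63), which encodes the ligand of CD30, and Ltb (2.53, SE 0.29), which encodes lymphotoxin beta and was at 2518 ± 430 against 463 ± 226.

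The members also differed in how closely they followed each other and other genes over the 20 samples, which is a description because the samples share 6 groups. Between the members, Pearson correlations of log2 values were 0.791 to 0.947 among Cd80, Cd274, Pdcd1lg2, Icosl, Cd70, Tnfsf4 and Tnfsf9. Cd86 correlated negatively with all of them and most strongly with Cd276 (-0.876), and Cd200 ran with Cd70 (0.825) but not with Cd276 (-0.0757). Among 10217 other genes with a mean of at least 100, the nearest to Cd274 were Specc1 (0.986) and Il21r (0.985), to Pdcd1lg2 Il4i1 (0.975) and Bend4 (0.970), and to Cd200 Serpinb9 (0.992) and Sepsecs (0.976). Those nearest to Cd86 were Rab32 (0.982) and Txndc15 (0.958), to Cd80 Dennd4a (0.974) and Gbp9 (0.971), and to Icosl Gpr126 (0.980) and Depdc5 (0.979). For the TNF ligands they were Ikzf4 and Spata31d1b (both 0.976) for Cd70, Dirc2 (0.950) and Ccnd2 (0.948) for Tnfsf4, and Gadd45b (0.973) and Slc2a6 (0.966) for Tnfsf9. Cd276 was closest to Slc15a4 (0.941) and Ccl9 (0.940).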

How the data were processed

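RNAseq libraries of sorted dendritic cells were analysed from 1 table per library. The deposited signal is a normalized read count: the authors used Cutadapt for trimming, STAR for alignment to mm10 (version 2.6 in the submitters' processing notes), HTSeq-count for counting per Ensembl gene and DESeq2 (version 1.24.0) for the size factors that divide the counts. The Ensembl release and strand setting are not given in the sources used here. In each library 1 read had a fixed worth, and dividing by it gave whole reads for 100% of the values (tolerance 1e-06 reads). Libraries held 14266867 to 40119669 reads.

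Log2 values (pseudocount 1) entered limma (version 3.58.1, R 4.3.3), with 1 mean for each of the 6 groups and eBayes with an intensity trend, over 14970 genes, with Benjamini-Hochberg adjustment. Scripts were tested on simulated data. Alternatives were edgeR 4.0.16 and DESeq2 1.42.0 on recovered reads, TMM rescaling, pseudocounts of 0.1 and 8, no filter, all 21 libraries, 1 sample per pool, the lane as a covariate, a replicate block, only the groups compared, and each sample left out. The members, the lists of related genes, the cell type markers and the promoter motifs were chosen with earlier results of these data known. Genes named from the related lists were up to 4 per comparison, those with the greatest absolute fold change among changed genes with a mean of at least 100 in the higher group. Gene positions and exon lengths came from GENCODE M21, in which 37607 of 37734 gene IDs were found. Promoter windows came from RefSeq.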

Additional observations from a re-analysis of the deposited data

Results flagged for a closer look

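Each group of 4 samples was searched for a sample that stood apart, 20 tests in all, so some flags can arise by chance. In splenic cDC1, Cd70 and Cd276 were at 0 in all 4 samples, so nothing could be flagged for them there. In immature thymic cDC1, Cd70 was at 0 in 3 samples and at 4.16 in replicate 2, and Cd276 was at 0 in 3 samples and at 3.38 in replicate 1. For both, the gap to the other samples was the whole range of the group (a ratio of 1.0). These values stand for 5 and 4 reads, and with 3 samples at 0 any other value gives this ratio.

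The effect of maturity differed between thymic cDC2 and cDC1 by the test of the difference itself (log2 fold change in cDC2 minus that in cDC1) for Pdcd1lg2 (-5.45), Cd274 (-3.44), Cd70 (-3.28), Cd276 (-3.04), Tnfsf9 (-2.04), Cd80 (-1.39) and Cd86 (0.80, under 2-fold). For the first 6 the rise was greater in cDC1 or, for Cd276, the direction of the fitted values differed, and for Cd86 mature cDC1 lay below immature cDC1 while cDC2 gave 0.04. The effect of the tissue on immature cells differed between cDC2 and cDC1 for Cd200 (2.82) and Tnfsf9 (-1.23).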

How the results depend on the processing

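The 90 log2 fold changes of the members (10 genes in 9 contrasts) were recomputed under 31 settings. Of 2790 values, 2733 kept their direction and their side of the thresholds, 23 lost a call, 17 gained one and 17 changed sign, and none of the 45 changed results changed sign. The sign changes were those of Cd86 between mature and immature cDC2 without TH2Minus replicate 1 (-0.05) or TH2Plus replicate 3 (-0.02, range over samples left out up to 0.13), of Pdcd1lg2 between the tissues in cDC1 without SP1Minus replicate 2 (0.11), TH1Minus replicate 2 (0.04) or TH1Minus replicate 4 (0.21, range from -0.39), of Tnfsf4 in that contrast without the same 3 samples (-0.07, -0.10 and -0.44) or SP1Minus replicate 4 (-0.40, range up to 0.54), of Cd200 between the mature subsets without TH1Plus replicate 2 (-0.05, range up to 0.20), of the maturation difference of Icosl without TH2Plus replicate 2 (0.02) or TH1Plus replicate 3 (0.15, range from -0.21), of that of Tnfsf4 with a pseudocount of 8 (0.21), and of the tissue difference of Cd70 between the subsets with edgeR (-2.69), DESeq2 (-2.20), a pseudocount of 0.1 (-0.26) or without SP2Minus replicate 2 (-0.34, range up to 0.88). The cause was not tested. Counts of changed members moved by more than 1.5 times in 3 contrasts. Between the tissues in cDC1 the count of 2 became 1 with a pseudocount of 8 or the lane as a covariate and was 1 to 2 with a sample left out. Between the mature subsets the count of 1 became 0 with a pseudocount of 0.1 and was 0 to 2 with a sample left out. For the tissue difference between the subsets the count of 2 was 1 to 3 with a sample left out. With a sample left out, the other counts were 8 to 9 and 7 to 8 for maturity in cDC1 and cDC2, 2 for the tissues in cDC2, 9 to 10 and 7 for the subsets in spleen and immature thymus, and 5 to 6 for the maturation difference. Rescaling and other tests moved the median of all genes by at most 0.08 (log2) in any contrast. With under 10 reads per library, Cd70, Cd276 and Tnfsf4 in immature cDC1 allow no estimate of a fold change that is free of the pseudocount.

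Pool numbers recur between the subsets of a tissue, so their pairing was checked. Deviations from the group means correlated between same-pool samples at -0.0781 to 0.461 in the spleen and -0.15 to 0.276 in immature thymic cells. Between samples of different pools they correlated at -0.492 to 0.244 and at -0.224 to 0.258. These ranges overlap, and with so few pairs the check cannot decide whether the numbers pair the samples. With the pool as a replicate block (consensus correlation 0.155) the counts of changed members were 9, 7, 2, 2, 9, 7, 1, 6 and 3 in the 9 contrasts, against 9, 7, 2, 2, 9, 7, 1, 6 and 2 without it, the added call being the tissue difference of Pdcd1lg2 between the subsets (adjusted p = 0.0793).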
